A study of Mus musculus with 18 samples.

Results

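The genes described are the nuclear-encoded subunits of the respiratory chain and of ATP synthase, measured in whole liver of mice that carried the 446P or the 446L form of GKRP. GKRP, the product of Gckr, binds glucokinase and holds it in the hepatocyte nucleus. Members were set by a rule on gene names, chosen with earlier results of these data known. They were the protein-coding genes whose symbols begin Ndufa, Ndufb, Ndufc, Ndufs, Ndufv, Uqcr, Cox4, Cox5, Cox6, Cox7, Cox8, Cyc1 or Atp5, without the Ndufaf assembly factors, together with Sdha, Sdhb, Sdhc and Sdhd. The rule gave 91 of the 21542 protein-coding genes in the files. Of these, 80 had at least 10 counts in at least 4 of the 18 libraries and were tested among 10938 genes. The tested members were 37 of 38 in complex I, all 4 in complex II, all 9 in complex III, 12 of 21 in complex IV and 18 of 19 in complex V. Ndufa4 and Ndufa4l2 carry complex I names but were counted with complex IV, where the Ndufa4 protein resides.

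The chain passes electrons from NADH (complex I) and succinate (complex II) through ubiquinone to complex III, cytochrome c and complex IV, which reduces oxygen. Complexes I, III and IV pump protons across the inner mitochondrial membrane, and complex V, the ATP synthase, uses their return to make ATP. A small set of core subunits is encoded by mitochondrial DNA, and the rest, described here, are transcribed in the nucleus and imported. In hepatocytes the chain serves fatty acid oxidation, gluconeogenesis and urea synthesis.

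The males were 4 PP and 4 LL mice and the females 5 PP and 5 LL mice. PP is homozygous for the wild-type form (Gckr-446P in the labels) and LL for the knock-in form (Gckr-446L), whose GKRP has leucine in place of proline in every cell that makes it. All mice were of 1 knock-in line and ate standard chow, and each library was the liver of 1 mouse. The labels gave ages of 9 to 14 weeks in both PP groups, 13 to 14 weeks in LL males and 11 to 14 weeks in LL females, whereas the series text gives a single age for all mice, and this conflict was not resolved.

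Libraries held 3794671 to 6613905 estimated counts. Xist counts were at least 2077 in the 10 female libraries and at most 5.40 in the 8 male libraries. The Gckr substitution changes a codon, so counts do not check the genotype. Of 8 hepatocyte markers 7 were in the files and all 7 passed the filter, whereas 4 of 5 skeletal muscle markers were at 0 in every library. In bulk liver, fewer cells of a type and less RNA per cell cannot be told apart. Fragment length was estimated in each library as the median difference between transcript length and effective length, over transcripts of at least 3000 bases. The estimate is not a measured length, since the read layout is not given, and it ranged from 203 to 631 bases. It was 448 ± 108 bases in PP females and 292 ± 52.1 in LL females (SD, n = 5 each), and 518 ± 95.7 in PP males and 407 ± 156 in LL males (SD, n = 4 each). Male LL 1 stood apart, with 17.8% of its counts on the 13 subunits encoded by mitochondrial DNA, against 8.43% to 13.5% in the other 17 libraries.

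Levels were compared between genes as DESeq2-normalized counts per kilobase of mean transcript length, averaged over the 18 libraries. On this scale Ndufa4, an accessory subunit of complex IV, was highest at 3058, followed by Atp5f1b, the catalytic beta subunit of ATP synthase, at 2697. Cox6b1 at 2375, Cox6c at 1883 and Cox4i1 at 1870, all of complex IV, came next. The median level was 1184 for the 12 tested complex IV members and 1053 for complex V, against 710 for complex III, 618 for complex II and 417 for complex I. By this measure the level within complex I ran from 120 for Ndufab1, the mitochondrial acyl carrier protein, to 1067 for Ndufb9. Atp5mc2, 1 of 3 genes for the same c-ring protein, was lowest at 55.9, while its paralog Atp5mc3 stood at 1747. Near-identical genes held 788% as many reads as Atp5mc2 itself and 41.9% as many as Ndufab1. The levels of both, and so the ranks at the low end, are uncertain. Atp5if1, which encodes the inhibitor that blocks ATP hydrolysis by the synthase, stood at 89.0, the second lowest. In the deposited TPM, whose values also correct for effective length, the means by complex ran from 43.9 for Ndufs7 to 410 for Ndufa6 in complex I, from 119 for Sdhb to 211 for Sdha in complex II and from 100.1 for Uqcrfs1 to 486 for Uqcrh in complex III. They ran from 82.0 for Cox7a2l to 1083 for Ndufa4 in complex IV and from 12.2 for Atp5mc2 to 969 for Atp5f1b in complex V.

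Several complex IV subunits exist as paired genes, of which 1 is used in heart and skeletal muscle. In these livers the muscle forms were nearly absent. Cox6a2 gave 1 estimated count in all 18 libraries together, Cox8b gave 3 and Cox7a1 gave 61.9, with up to 8.06 in a single library. Their liver counterparts had mean normalized counts of 564 for Cox6a1, 490 for Cox8a and 681 for Cox7a2. Cox4i2, the lung form of Cox4i1, gave 3 estimated counts in all and Ndufa4l2, a paralog of Ndufa4 induced by hypoxia, gave 34.2. Ndufb11b, Cox5b-ps, Cox7b2 and the testis gene Cox8c were at 0 in every library, and Cox6b2 gave 21.1 counts. The last untested member, a second locus with the symbol Atp5po, gave 3.37 counts.

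Promoters are shown for 5 members that the results below return to or that hold a motif of a known regulator of these genes. Each line gives the 120 bases before the start of the transcript with most reads, on the gene's strand, in GRCm39, and for Atp5if1 this start lies inside the annotated gene. Capitals mark an exact match, on either strand, to GCATGCGC (core of the site of NRF1, nuclear respiratory factor) or CCGGAAGT (ETS site bound by GABP).
Ndufa7, chr17:34043417-34043536, plus strand: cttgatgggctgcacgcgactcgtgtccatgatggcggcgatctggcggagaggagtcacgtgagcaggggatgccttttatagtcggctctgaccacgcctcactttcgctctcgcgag
Atp5if1, chr4:132260978-132261097, minus strand: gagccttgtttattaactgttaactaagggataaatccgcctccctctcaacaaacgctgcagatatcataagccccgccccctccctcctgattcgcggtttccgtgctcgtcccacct
Ndufa6, chr15:82238524-82238643, minus strand: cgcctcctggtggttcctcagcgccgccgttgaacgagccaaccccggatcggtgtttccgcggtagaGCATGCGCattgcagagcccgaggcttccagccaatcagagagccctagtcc
Ndufa13, chr8:70355873-70355992, minus strand: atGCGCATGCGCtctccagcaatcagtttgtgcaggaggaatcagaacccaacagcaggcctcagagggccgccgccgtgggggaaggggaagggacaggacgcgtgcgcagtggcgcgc
Uqcr11, chr10:80242677-80242796, minus strand: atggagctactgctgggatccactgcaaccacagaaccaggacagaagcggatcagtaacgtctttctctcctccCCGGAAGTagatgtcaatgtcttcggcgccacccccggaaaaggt

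In windows from 250 bases before to 50 bases after the start, the NRF1 letters (GCATGCGC, reverse GCGCATGC) were found in 8 of 80 members (10%) and in 4.82% of the 10198 windows of all tested protein-coding genes. The ETS letters (CCGGAAGT) were found in 4 members (5%) against 7.28%, and those of YY1 (AAGATGGC) in 4 (5%) against 3.91%. The match in Ndufa6 began 52 bases before its start and that in Uqcr11 45 bases before its start. In Ndufa13 a pair of NRF1 matches on opposite strands overlapped. A match of letters is a description of the window and not a measured binding site. The tested members lay on 19 chromosomes, with at most 6 on any 1.

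Between LL and PP males no single subunit passed the test. In DESeq2 0 of 80 members were called at an adjusted P below 0.05 in either direction, where 0.219% of all 10938 genes were called higher and 0.11% lower. The default filter of DESeq2 on low means left an adjusted P for 77 members and 3301 genes, and the rest could not be called. With that filter off, 0 members and 30 genes were called. At an unadjusted p below 0.05 there were 3 members, 3.75% of those tested against 7.81% of all genes. edgeR also called 0 members, but it called only 3 of all genes, so its 0 says little about the members. The log2 fold change was above 0 in 62 of 80 members, with a median of 0.12, while it was above 0 in 5471 of all 10938 genes. By complex the median was 0.08 in complex I, 0.07 in complex II, 0.12 in complex III, 0.13 in complex IV and 0.19 in complex V. The direction turned with a single scaling, an offset in DESeq2 for the mean effective length of each gene's transcripts in each library (the transcript length offset). The median was then -0.05, with 32 of 80 above 0. It was 0.07 with size factors from genes under 1500 bases, 0.07 with the fragment length estimate as a term and 0.11 in edgeR. The size of the median rested on the mice: it was 0.25, with 78 of 80 above 0, without male LL 1, and 0.01, with 44 above 0, without male LL 4. With protein-coding transcripts counted alone Uqcrh, a small hinge protein of complex III, was called higher (0.59 ± 0.15, SE, DESeq2 adjusted P = 0.0115). That fit called 42 of all genes.

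The 3 smallest p-values in males were those of Ndufa3, Ndufab1 and Uqcrb. Ndufa3, an accessory subunit of the membrane arm of complex I, had 325, 246, 366 and 212 normalized counts in PP males and 388, 404, 312 and 386 in LL males, so that the groups overlapped. Its log2 fold change was 0.38 ± 0.17 (SE), with a DESeq2 adjusted P of 0.339. The Ndufa3 value was 0.11 with the transcript length offset and 2.06 with protein-coding transcripts alone. A transcript annotated for nonsense-mediated decay, and not as protein coding, held 80.2% of the Ndufa3 reads. Uqcrb, a small subunit near the ubiquinone site of complex III, had a log2 fold change of 0.40 ± 0.19 (adjusted P = 0.393). Ndufab1 had a value of 0.62 ± 0.29 (adjusted P = 0.370), and reads of near-identical genes came to 41.9% of its own, so its count is uncertain. Its counts were 81.6, 96.5, 151 and 89.1 in PP males and 132, 123, 130 and 259 in LL males, of which the last stood far above the rest. The large catalytic subunits differed less, with log2 fold changes of 0.03 ± 0.10 for Atp5f1b and 0.07 ± 0.10 for Sdha, the flavoprotein of complex II.

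**Figure D1:**
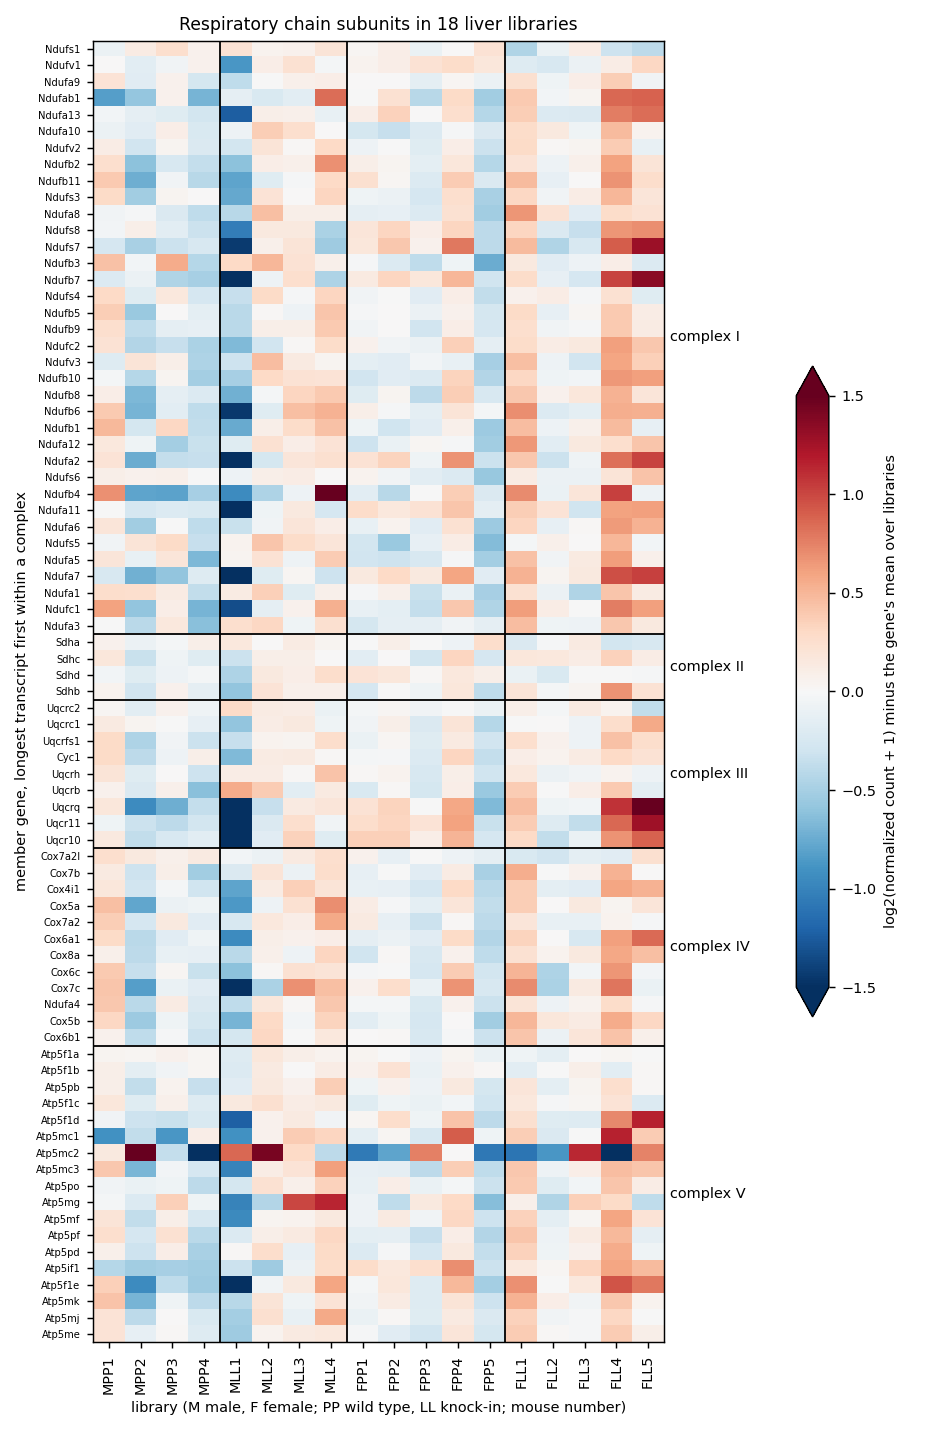
Level of 79 of the 80 tested subunit genes (rows, by complex, longest transcript first) in each of the 18 libraries (columns), as log2(normalized count + 1) minus the mean of the gene, with the colour scale cut at -1.5 and 1.5. Over all 80 genes, male LL 1 is the lowest library for 42 and female LL 4 the highest for 31.

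In female mice most subunits had higher values in LL than in PP livers, by a small amount and without a call for any single gene. DESeq2 called 0 of 80 members at an adjusted P below 0.05, against 0.384% of all genes called higher and 0.393% lower. All 80 members and 8598 of the 10938 genes had an adjusted P. At an unadjusted p below 0.05 there were 20 members higher and 1 lower, 26.2% of the members against 13.0% of all genes. edgeR called 0 members and only 3 of all genes, so its 0 says little about the members. The log2 fold change was above 0 in 72 of 80 members, with a median of 0.27, against 51.6% and a median of 0.01 over all genes. Over libraries, the summed normalized counts of the members were 47096 ± 5155 in PP females and 53726 ± 6290 in LL females (SD, n = 5 each). The ranges of the sums overlapped, from 40755 to 54170 in PP and from 45870 to 61733 in LL mice. Beside this, the summed counts of 5 Kupffer cell markers ran from 746 to 930 in PP females and from 452 to 727 in LL females, and those of 7 hepatocyte markers from 756803 to 843702 and from 632547 to 760286, with 1 hepatocyte marker and 0 Kupffer cell markers called. Their part in the member values was not tested. No p is given for sums or medians over the members, which are read together with the length of their transcripts below.

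The smallest p-values in females belonged to accessory subunits of complex I and a small subunit of complex IV. Ndufa10, an accessory subunit of complex I with a nucleoside kinase fold, had 368, 349, 384, 439 and 382 normalized counts in PP females and 538, 490, 425, 615 and 461 in LL females. Only female PP 4 and female LL 3 crossed over. Its difference was 0.39 ± 0.12 on the log2 scale (SE; adjusted P of 0.0755 in DESeq2). The Ndufa10 value was 1.00 with the transcript length offset (adjusted P = 0.524), 0.81 with protein-coding transcripts alone, and 0.20 with size factors from short genes. A transcript annotated for nonsense-mediated decay held 60.3% of the Ndufa10 reads. Cox8a, the liver form of a small membrane subunit of complex IV, had 390, 487, 409, 504 and 371 counts in PP females and 563, 499, 533, 722 and 658 in LL females. Here female PP 4 and female LL 2 overlapped, and the log2 fold change was 0.46 ± 0.15 (adjusted P = 0.0874). Ndufa5, a subunit of the peripheral arm of complex I, had a log2 fold change of 0.53 ± 0.17 (adjusted P = 0.0874), which turned to -0.31 when transcripts annotated as protein coding were counted alone. A transcript with no coding sequence defined held 69.4% of the Ndufa5 reads.

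Calls among the female members appeared when single mice were left out. Without female PP 4 there were 5, all higher (Cox8a, Ndufa10, Ndufa5, Ndufb10 and Ndufs5), beside 343 calls over all genes in place of 85. Without female LL 2 there were 3 higher (Cox8a, Ndufa12 and Ndufa5), beside 144 calls over all genes. Without female LL 3 there were 3 higher (Cox8a, Ndufa10 and Ndufa5) and 1 lower (Ndufs1), beside 128 calls over all genes. Leaving out any of the other 7 female libraries gave 0. Ndufa12, Ndufb10 and Ndufs5 were named after their values were seen.

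By role, the female values were as follows, none of them called. All 30 accessory subunits of complex I were above 0, with log2 fold changes from 0.14 to 0.56 and a median of 0.34. The 7 nuclear-encoded core subunits were mixed: the 3 of the electron input module had -0.27 ± 0.11 (SE) for Ndufs1, which carries iron-sulfur clusters, -0.17 ± 0.16 for Ndufv1, the NADH-binding flavoprotein, and 0.23 for the highest of the 3, while the 4 of the quinone-reducing module had a median of 0.22. In complex II, the flavoprotein Sdha had -0.17 ± 0.09 and the iron-sulfur protein Sdhb 0.33 ± 0.16, and the membrane anchors Sdhc and Sdhd ranged from -0.20 to 0.24. In complex III all 9 members were above 0, among them the iron-sulfur protein Uqcrfs1 at 0.27 ± 0.15, cytochrome c1 (Cyc1) at 0.20 ± 0.16 and the core protein Uqcrc1 at 0.24 ± 0.16. In complex IV 11 of 12 were above 0, with 0.37 ± 0.21 for Cox4i1, 0.19 ± 0.23 for Cox5a, 0.45 ± 0.22 for Cox6a1, 0.12 ± 0.16 for Cox7a2 and 0.20 ± 0.16 for Ndufa4. The exception was Cox7a2l, which takes part in supercomplex assembly, at -0.06 ± 0.11. In complex V 16 of 18 were above 0, and the 2 below were the alpha and beta subunits of the catalytic head, with -0.02 for Atp5f1a and -0.10 ± 0.09 for Atp5f1b. The c-ring genes had a median of 0.32, the peripheral stalk 0.28 and the other small membrane subunits 0.21.

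**Figure D2:**
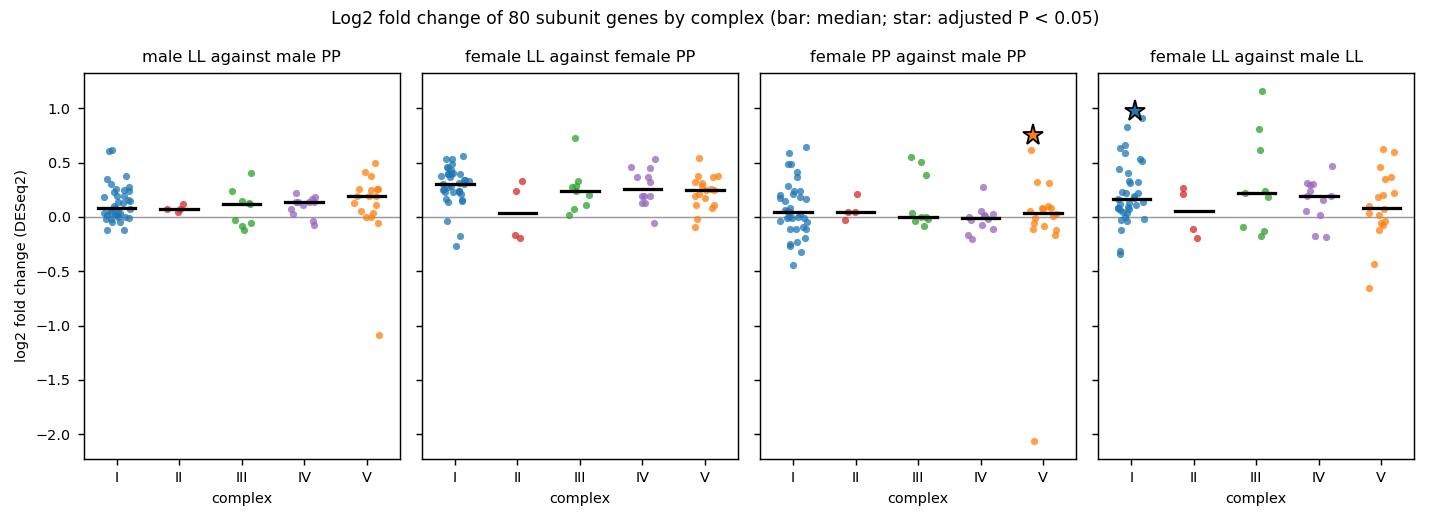
DESeq2 log2 fold change of each of the 80 tested subunit genes (points) by complex in 4 comparisons, with the median of each complex as a bar and genes called at an adjusted P below 0.05 as stars. In LL females against PP females 72 of 80 points lie above 0 and none is called, and the only stars are Atp5if1 and Ndufa7 in the comparisons of sex.

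Longer members had lower values in females. The tested members were short, with a median mean transcript length of 663 bases against 2633 bases over all tested genes, and 73 of 80 were under 1500 bases against 22.1% of all genes. The 73 short members had a median log2 fold change of 0.28 in females, with 69 above 0, whereas the 7 of 1500 bases or more (Sdha, Ndufs1, Atp5f1a, Sdhc, Uqcrc2, Uqcrc1 and Atp5f1b) had a median of -0.02, with 3 above 0. Genes outside the list were taken in the same length bands. Between 500 and 800 bases the female median was 0.30 for 39 members, all above 0, and 0.28 for 489 other genes, 82.2% of them above 0. Below 500 bases it was 0.32 for 15 members, all above 0, and 0.31 for 216 other genes, 69.9% above 0. From 800 to 1500 bases it was 0.23 for 19 members and 0.16 for 1638 other genes, and from 1500 to 3000 bases -0.02 for 7 members and 0.05 for 3880 other genes. The 4635 genes of 3000 bases or more, with no member among them, had a median of -0.11. In males the values were 0.12 for members and -0.08 for other genes below 500 bases, and 0.14 and 0.09 from 500 to 800 bases.

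The fragment length estimate differed between the female genotypes in the same libraries, as given above, and its part in the member values was examined only through alternative fits. With the estimate as a term in DESeq2 the female median was 0.18 with 68 of 80 above 0. With the transcript length offset, which is built from the same effective lengths, it was 0.23 with 69 above 0. With size factors from the 2416 tested genes under 1500 bases it was 0.08 with 59 above 0. That last scaling placed the median of all genes at -0.18. Under it Sdhd was called lower in females, at -0.38 ± 0.10 (SE, DESeq2 adjusted P = 0.0150), and it is the only female call with all 18 libraries in 1 fit and genes filtered on low counts. That fit called 161 of all genes, against 85 in the main fit. The fragment length estimate ran from 369 to 631 bases in PP females and from 247 to 377 in LL females, so that only the nearest mice overlapped.

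**Figure D3:**
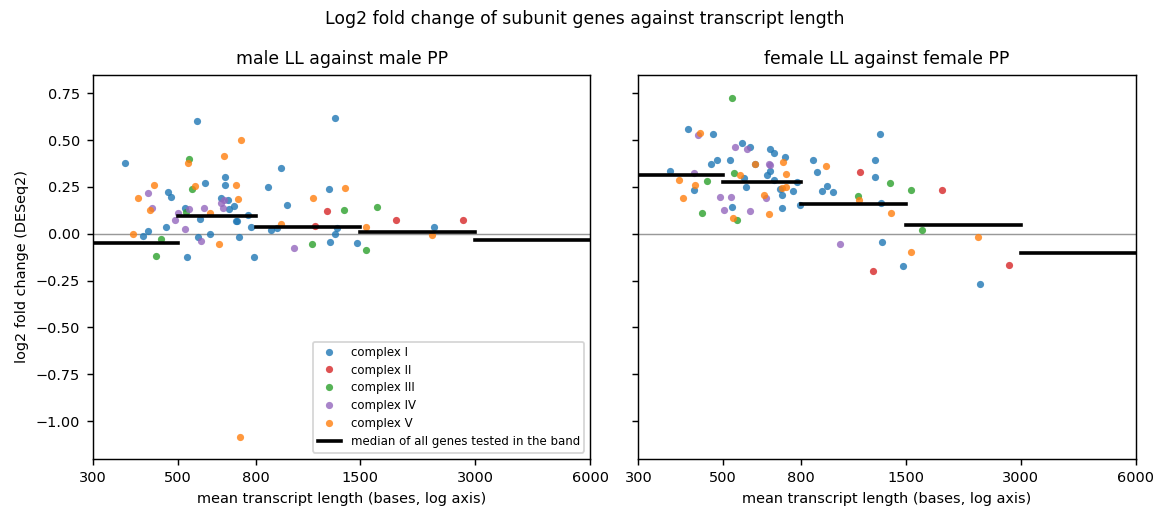
DESeq2 log2 fold change of the 80 subunit genes (points, coloured by complex) against mean transcript length on a log axis, for LL against PP mice in males and females, with the median over all tested genes in 5 length bands as black lines. The shortest and longest bands are drawn to the edges of the axis. In females the line falls from 0.31 below 500 bases to 0.05 between 1500 and 3000 bases and -0.11 above, and the median of the 7 longest members is -0.02.

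Between PP females and PP males 1 subunit passed the test. DESeq2 called 1 of 80 members higher and 0 lower, 1.25% of the members, where 3.73% of all genes were called higher and 3.28% lower. The median log2 fold change was 0.02, with 44 of 80 above 0. The called gene was Atp5if1, on chromosome 4, 132257215 to 132262823, minus strand. It had 33.6, 31.5, 32.0 and 31.5 normalized counts in PP males and 55.1, 50.9, 54.6, 74.3 and 36.1 in PP females, and every female value was above every male value. The log2 difference was 0.75 ± 0.23 (SE, DESeq2 adjusted P = 0.0229; edgeR adjusted P = 0.0300). Its counts in LL mice were 36.3, 31.2, 42.8 and 55.1 in males and 51.0, 46.4, 56.9, 69.1 and 63.5 in females, which overlapped, with a log2 fold change of 0.46 ± 0.23. The 2 sex differences share no library, and the interaction of -0.29 ± 0.32 did not separate them. The Atp5if1 call was lost in 6 of 24 alternatives. With the transcript length offset the value was 0.54 (DESeq2 adjusted P = 0.604) and with protein-coding transcripts alone 0.69 (adjusted P = 0.0748), and without male PP 2, male PP 3, male PP 4 or female PP 4 the adjusted P was 0.0706 to 0.0967. With few counts per library the gene carries a wide counting error. Markers of the liver's cells differed in the same comparison: the summed counts of 7 hepatocyte markers ran from 450308 to 556818 in PP males and from 756803 to 843702 in PP females, and those of 5 stellate cell markers from 298 to 616 and from 741 to 987, with 2 and 4 called. Those of 5 endothelial markers ran from 130 to 245 and from 257 to 531, with 2 called, and those of 3 red cell markers overlapped, from 1558 to 4845 and from 1022 to 1658, with 1 called. Their part in the Atp5if1 value was not tested.

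The share of called members was below that of all genes in this comparison, and the complexes had medians from -0.01 in complex IV to 0.05 in complex II. At an unadjusted p below 0.05 there were 5 members, 6.25% against 17.5% of all genes. Atp5mc2 had the lowest log2 fold change, at -2.06 ± 0.88. Its counts were 27.2, 289, 18.8 and 7.2 in PP males and 11.2, 13.6, 42.0, 24.5 and 11.1 in PP females, so that 1 library, male PP 2, held most of the difference. Near-identical genes held 788% as many reads as Atp5mc2 itself, and its value is uncertain.

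Between LL females and LL males 1 subunit passed the test as well. DESeq2 called 1 of 80 members higher and 0 lower, against 3.4% of all genes higher and 3.71% lower, and 16 members had an unadjusted p below 0.05, as had 2190 of all 10938 genes. The median log2 fold change was 0.18, with 61 of 80 above 0, and 0.04, with 49 above 0, without male LL 1. Ndufa7, an accessory subunit of the peripheral arm of complex I, was called (chromosome 17, 34043537 to 34057291, plus strand). Its counts were 89.4, 228, 263 and 207 in LL males and 369, 265, 285, 503 and 526 in LL females, and did not overlap. The log2 difference was 0.98 ± 0.26 (SE, DESeq2 adjusted P = 0.00587; edgeR adjusted P = 0.0397). In PP mice its counts were 218, 155, 171 and 226 in males and 286, 318, 285, 388 and 229 in females, which did not overlap either, with a log2 fold change of 0.65 ± 0.26 (adjusted P = 0.124). The 2 differences were not separated by the interaction (0.33 ± 0.37).

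The Ndufa7 call kept an adjusted P below 0.05 in 22 of 24 alternatives, including each of the 9 that left out a library, and without male LL 1 the log2 fold change was 0.74 ± 0.23 (DESeq2 adjusted P = 0.0331). It was lost with the transcript length offset (adjusted P = 0.0643) and with protein-coding transcripts alone (0.52, adjusted P = 0.722). With protein-coding transcripts alone Uqcr10 was called instead (1.01 ± 0.31, SE, DESeq2 adjusted P = 0.0320), beside 534 calls over all genes. The Ndufa7 transcript with most reads, Ndufa7-201, held 41.4% of the reads of the gene. Read composition differed in the same comparison. The most-read Ndufa7 transcript has a GC content of 55.7%, and in the band from 55% to 60% GC the median log2 fold change of all 1850 genes was 0.25, against -0.10 below 45%. The members showed the same order, with 0.33 for 20 members from 55% to 60% GC and 0.06 for 11 members below 45%. The summed counts of 7 hepatocyte markers ran from 536573 to 641482 in LL males and from 632547 to 760286 in LL females, with 2 called. Those of 5 Kupffer cell markers ran from 358 to 669 and from 452 to 727, with 1 called. Those of 3 red cell markers ran from 871 to 3313 and from 881 to 4939, with 1 called. The part of GC content and of these markers in the Ndufa7 value was not tested.

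**Figure D4:**
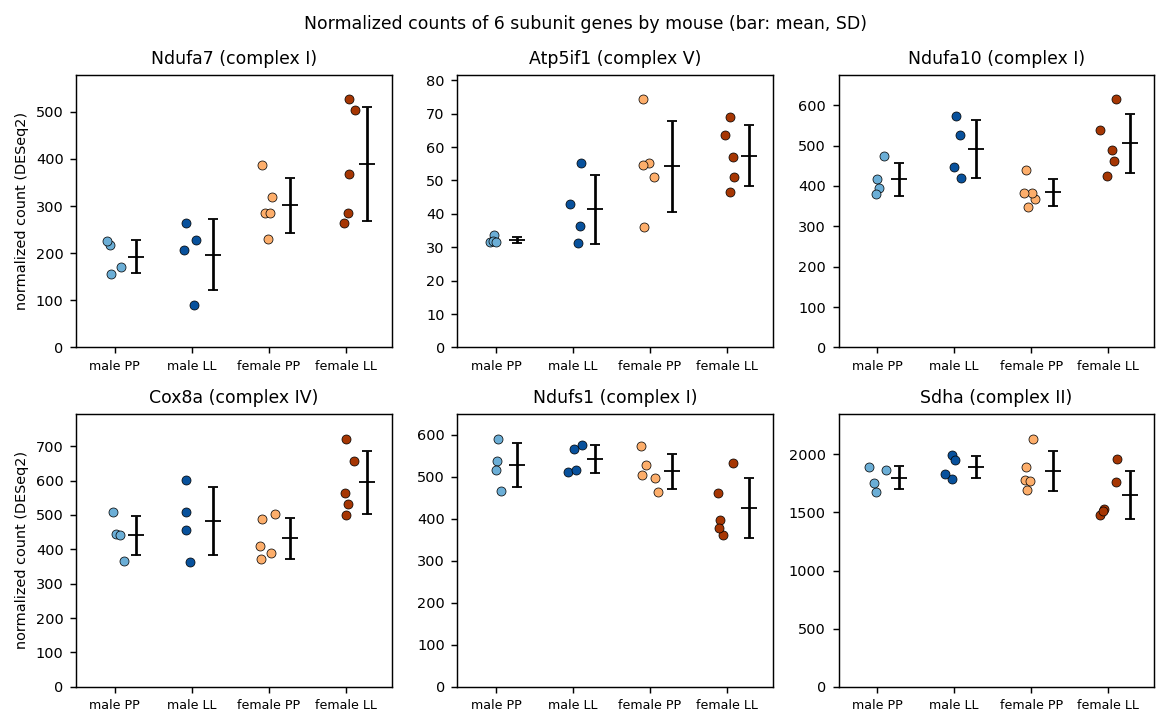
Normalized counts of 6 subunit genes in each mouse (points) by group, with the mean and SD as bars, on linear axes that start at 0. Ndufa7 in both genotypes and Atp5if1 in PP mice are higher in every female than in every male, while Ndufa10, Cox8a, Ndufs1 and Sdha overlap between the groups.

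Uqcrq, a small complex III subunit at the ubiquinone end, had the largest log2 fold change of this comparison, 1.16 ± 0.45 (SE, DESeq2 adjusted P = 0.101), and is named for that after its values were seen. Its counts were 124, 372, 518 and 536 in LL males and 649, 453, 459, 1000 and 1777 in LL females, so that the spread within each group was large. Ndufs1 had the lowest value among members without near-identical copies, at -0.34 ± 0.12 (adjusted P = 0.0579). Its counts were 577, 512, 517 and 567 in LL males and 361, 462, 534, 399 and 378 in LL females, with only female LL 3 inside the male range. Without female LL 3 it was called, at -0.44 ± 0.11 (adjusted P = 0.00292), among 5 members called higher and 2 lower. That fit called 926 of all genes, against 778 with all libraries. Without male LL 3 there were 3 calls, all higher, as there were without female LL 2, and without male LL 4 there were 2. Calls over all genes were 716 without male LL 3, 798 without female LL 2 and 691 without male LL 4. The remaining 5 fits without a library gave 1. The comparisons by sex and by genotype share libraries, and no overlap between them is given.

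No subunit passed the test of whether its genotype difference differed between the sexes. DESeq2 called 0 of 80 members for the genotype by sex interaction, against 0.064% of all genes higher and 0.0549% lower, and 0 members had an unadjusted p below 0.05, against 5.67% of all genes. Its filter on low means left an adjusted P for 64 of 80 members and 1606 of 10938 genes, so the others could not be called. With that filter off, 0 members and 8 genes were called. edgeR called 0 members and 0 of all genes. The smallest p-values were those of Sdhd (-0.32 ± 0.17 on the log2 scale, SE), Ndufs1 (-0.30 ± 0.17) and Sdha (-0.24 ± 0.14), with DESeq2 adjusted P of 0.521, 0.559 and 0.572. The median over members was 0.15, with 58 above 0, and 0.01 both without male PP 1 and without male LL 1, and from 500 to 800 bases it was 0.17 for the members and 0.18 for all genes.

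The level of the members as a whole varied from mouse to mouse within every group. For each library the median deviation of the 80 members from their means over the 18 libraries was taken on the log2 scale. It ran from -0.31 to 0.16 in PP males, from -0.42 to 0.21 in LL males, from -0.33 to 0.17 in PP females and from -0.07 to 0.47 in LL females. Male LL 1 was lowest and was the lowest of all 18 libraries for 42 of 80 members (52.5%), against 12.1% of all tested genes. Female LL 4 was highest and held the highest value of 31 members (38.8%), against 8.82% of all genes, and female LL 5 held that of 16. The median deviation of the 2343 other tested genes under 1500 bases had the same sign as that of the members in 14 of 18 libraries, from -0.25 in female PP 5 to 0.23 in female LL 4.

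**Figure D5:**
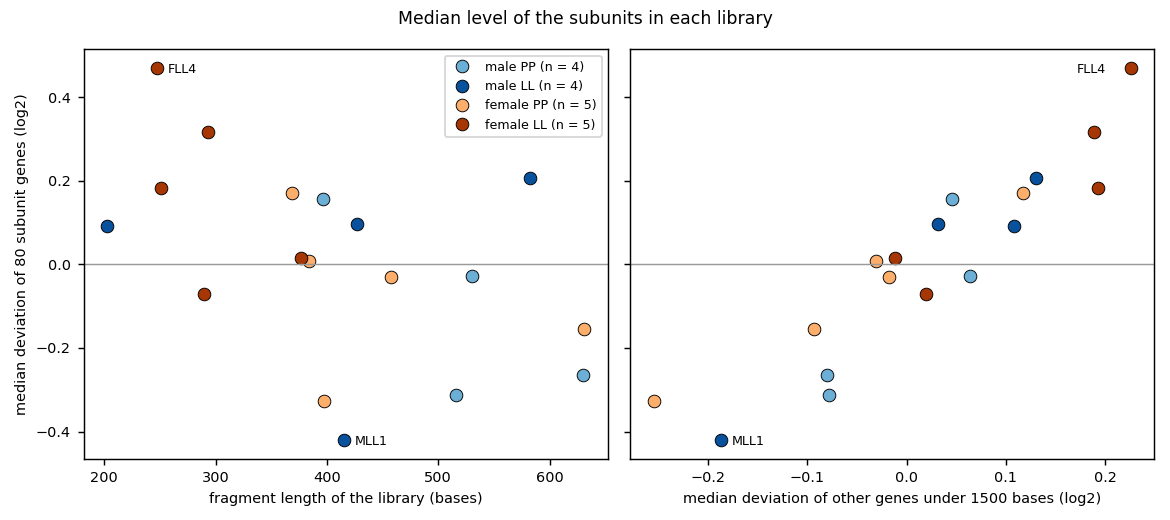
Median deviation of the 80 subunit genes from their means (log2) in each of the 18 libraries, against the estimated fragment length of the library in bases (left) and against the median deviation of 2343 other tested genes under 1500 bases (right), coloured by group. The subunits and the other short genes deviate with the same sign in 14 of 18 libraries, with female LL 4 highest and male LL 1 lowest for the subunits.

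Within groups the members had a median SD of 0.28 on the log2 scale, against 0.32 for all tested genes and 0.22 for the 2018 tested genes in the same range of mean counts. Complex II varied least (0.18), and complexes I (0.30), IV (0.29), V (0.28) and III (0.26) varied more. Several small subunits stood far below their means in male LL 1: the log2 deviation there was -1.92 for Uqcrq and -1.80 for Uqcr10, both small complex III subunits, -1.70 for Cox7c of complex IV, whose count is uncertain through near-identical genes, and -1.68 for Atp5f1e of complex V. These genes are named for that after their values were seen. By contrast Atp5f1a spanned 0.35 on the log2 scale over all 18 libraries and Atp5f1b 0.42. Male LL 1 was also the library with the highest share of counts on subunits encoded by mitochondrial DNA, and the part of this in its low member values was not tested.

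The subunits encoded by mitochondrial DNA belong to the same complexes and were compared as a list. In LL against PP mice 13 of 13 were above 0 in males (median log2 fold change 0.29) and in females (0.38), with 0 called in either. In males the list rested on single libraries, with a median of 0.18 and 8 of 13 above 0 without male LL 1 and 0.13 and 11 of 13 without male PP 4. DESeq2 called 1 of 13 without male LL 3 and 1 without male PP 2 in males, and 2 without female PP 4 in females. In PP females against PP males 2 of 13 were above 0, with a median of -0.33, and mt-Nd2 was called lower (-0.53 ± 0.17, SE, DESeq2 adjusted P = 0.0353). A call was not kept in most fits without a library: 0 of 13 were called without female PP 1, 2 or 5 or without male PP 1, 2 or 3. The median of the list stayed between -0.46 and -0.26 whichever library was left out. Without male PP 4 there were 2 calls. Summed normalized counts of the nuclear-encoded members came to 8.37% ± 1.85 of those of the 13 in PP males and 8.02% ± 3.27 in LL males (SD, n = 4 each). The corresponding shares were 10.3% ± 1.25 in PP females and 9.35% ± 1.70 in LL females (SD, n = 5 each). The ranges of this ratio overlapped between PP and LL mice in both sexes. It was lowest, at 3.84%, in male LL 1.

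Genes that build or feed the chain were taken as further lists. Among 16 tested assembly factors of complex I 0 were called by genotype, and Ndufaf2 was lower in PP females than in PP males (-0.85 ± 0.22, SE, DESeq2 adjusted P = 0.00286). Of 23 tested assembly factors of complex IV 22 were above 0 in LL females against PP females, with a median of 0.27 and 0 called, and Higd1a was lower in PP females than in PP males (-0.53 ± 0.14, adjusted P = 0.00566). The assembly factors of complexes II (4 tested), III (6) and V (6) had female medians of 0.36, 0.19 and 0.37, with 0 called in any comparison. Among 20 carriers and feeders of the chain the female median was 0.20, with 0 called by genotype, and Coq8a, a kinase-like protein of ubiquinone synthesis, was higher in LL females than in LL males (0.59 ± 0.20, adjusted P = 0.0430). The 13 enzymes of the citric acid cycle had a female median of 0.09 and a male median of 0.14, with 0 called in any comparison. For 13 tested regulators of mitochondrial gene expression, which are long (median 2780 bases), the medians were -0.08 and -0.04, again with 0 called.

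Ribosomal protein genes, another large set of mostly short genes, were counted in the same way. The 78 mitochondrial ribosomal protein genes, with a median length of 1149 bases, had a female median of 0.22, with 69 above 0 and 0 called by genotype, and the 77 tested cytosolic ribosomal protein genes, with a median length of 647 bases, had 0.14, with 61 above 0 and 0 called. The values for the subunits (0.27, 72 of 80) are given beside these without a test between lists.

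Sequence shared with other genes limits some members. Reads of non-member genes that have at least 50% of their 31-base words in a member came to at least 10% of that member's reads for 7 members: Atp5mc2 (788%), Ndufb4 (260%), Cox7c (147%), Atp5mg (97.7%), Ndufab1 (41.9%), Ndufs6 (37.7%) and Atp5mc1 (33.2%). For 68 of 80 they came to at most 1%. With the partner counts added, the count of called members stayed at 0 by genotype in both sexes and for the interaction and at 1 between the sexes in PP mice, and went from 1 to 2 between the sexes in LL mice, through Atp5mc1 (0.69 ± 0.23, SE, DESeq2 adjusted P = 0.0359). Calls over all genes between the sexes in LL mice were 779, against 778 in the main fit.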

How the data were processed

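RNA-seq of whole liver from 18 mice was used, 1 library per mouse. The authors quantified the reads with Salmon 1.4.0 (FastQC is also named in the submitters' processing notes) against GENCODE M26, and deposited estimated counts per transcript, not normalized, with TPM, which scales by effective length and total. Whether reads were paired or stranded is not given in the sources used here. Transcripts were joined to genes with GENCODE M39 (GRCm39), which placed 137570 of 139225, and at least 99.76% of each library's counts. Counts were summed per gene and rounded. Genes that reached 10 counts in 4 or more libraries were fitted in DESeq2 1.42.0 (R 4.3.3), all 18 libraries and 4 groups in 1 fit, with Wald tests, Benjamini-Hochberg adjustment and a threshold of 0.05. Folds on the log2 scale are not shrunken.

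The study describes 1 liver per mouse, and p-values measure the spread between mice. Alternatives were edgeR 4.0.16, limma 3.58.1 on log2(TPM + 1) and log2(TPM + 0.1), other scalings, filters and terms, and each library left out. Between pairs of libraries of 1 group the chi-square per degree of freedom was at least 12.3, so none was a copy. Mice with the same number in different groups did not deviate together (25 correlations from -0.17 to 0.16, 3 above 0.1). Within each group the labelled age never fell as the number rose. The numbers thus follow age order, and a block on them is partly a block on age. The fits were tested on simulated data. Genes to name were the members called in each comparison (at most 8), or the 3 of smallest p where none was, the member of highest and of lowest mean TPM in each complex, and a fixed set of core and isoform members. Other members were named after their values were seen. Promoters come from the GRCm39 sequence. The members and lists were chosen with earlier results of these data known. Values of 1 tested member are not reported here by name.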

Additional observations from a re-analysis of the deposited data

Results flagged for a closer look

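In 3 of 76 tests for a sample far from the others of its group (Dixon's test over 19 values in 4 groups, which flags 5% of groups by chance), a library stood apart, 3.95% of those run. The summed normalized counts of complex II were 3440 in male LL 1, against 4005 to 4075 in the other male LL mice. Those of complex III were 5446 in the same library, against 6546 to 6636. Ndufab1 had 259 normalized counts in male LL 4, against 123 to 132 in the other male LL mice.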

How the results depend on the processing

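Counts of called members moved as follows. In LL against PP males, protein-coding transcripts alone gave 1 (Uqcrh) in place of 0, beside 42 calls over all genes against 36 in the main fit. In LL against PP females, in place of 0, size factors from short genes gave 1, no filter on low counts 1, a fit of only those groups 2, and leaving out a library 0 to 5. Calls over all genes in these fits were 161, 109 and 119, and 29 to 343 with a library left out, against 85 in the main fit. In PP females against PP males, in place of 1, the length offset gave 2 (Ndufb3 and Ndufv1, both lower, with Atp5if1 lost). Size factors from short genes, age as a term and a fit of only those groups gave 2 each with Atp5if1 kept. Protein-coding transcripts alone gave 0 and leaving out a library 0 to 1, where the 1 without male PP 4 was Ndufb3, lower. Calls over all genes were 738 with the length offset, 652 with size factors from short genes, 800 with age and 836 with only those groups. They were 538 with protein-coding transcripts alone and 577 to 705 with a library left out, against 767 in the main fit. In the same comparison limma gave 28 with pseudocounts of 1 and 0.1. Beside these, 4581 and 4758 of all 10938 genes were called, and the median of all genes moved to 0.50 and 0.73. In LL females against LL males, in place of 1, the length offset gave 3 (Atp5me and Uqcrq higher and Atp5f1c lower, with Ndufa7 lost). Size factors from short genes gave 2, partner counts added 2, and leaving out a library 1 to 7. Protein-coding transcripts alone kept the count at 1, but with Uqcr10 in place of Ndufa7. Calls over all genes were 479 with the length offset, 637 with size factors from short genes and 779 with partner counts. They were 534 with protein-coding transcripts alone and 520 to 926 with a library left out, against 778 in the main fit. Here limma gave 7 with pseudocounts of 1 and 0.1, beside 461 and 441 calls over all genes (median of all genes 0.20 and 0.30). The interaction gave 0 in every alternative run. Of the genes named, Ndufa5 in females turned to -0.31 with protein-coding transcripts alone, and the Sdha interaction to 1.41 with the length offset, 0.11 with limma on log2(TPM + 1) and 0.11 on log2(TPM + 0.1). The cause of these moves was not tested. With the replicate number as a block, members called were 0 by genotype in males and in females, 1 in each comparison of sex and 0 for the interaction, so the block changed no count. Depth limits Atp5if1 and Atp5mc2, with means under 50 counts per library. The median over members ranged, with other settings, from -0.05 to 0.30 in males, 0.08 to 0.32 in females, -0.20 to 0.68 and 0.05 to 0.48 between the sexes in PP and LL mice, and -0.18 to 0.25 for the interaction. Among the other named genes 304 of 3144 values (9.67%) changed sign. The alternative with a fold limit and that of only the groups compared give no value for the interaction.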
